A study of Homo sapiens with 12 samples.

Results

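The genes described here encode the chaperones and folding enzymes of the endoplasmic reticulum (ER), the sensors of the unfolded protein response, and the machinery that returns misfolded proteins from the ER to the cytosol for degradation. They were taken from a list of 36 gene symbols, and a probe set counted for a gene when the array annotation gave it that gene's symbol alone. Of the 36, 35 were measured, among 16648 genes tested on the arrays. The exception was HSP90B1, the ER member of the HSP90 family, because all 43 of its probe sets also carried the symbol of a microRNA gene. RNA came from 293T cells, a human embryonic kidney line transformed with adenoviral DNA and carrying the SV40 large T antigen, on 12 arrays in 4 groups of 3. The control group carried a non-target short hairpin RNA, and the other groups carried 1 of 3 hairpins against RBFOX2 (shRNA1, shRNA2 and shRNA3), a regulator of alternative splicing that binds RNA. All 4 groups, controls included, were infected with lentivirus and selected with puromycin at 1 ug/mL for 10 days, so no group was free of virus or drug, and no agent that disturbs protein folding was applied.

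Proteins that enter the ER are held by HSPA5 (BiP), an HSP70 chaperone, and by the lectin chaperones calnexin and calreticulin, while disulfide isomerases and prolyl isomerases shape their bonds. When unfolded proteins accumulate, HSPA5 leaves the sensors IRE1 (gene ERN1), PERK (gene EIF2AK3) and ATF6. IRE1 then splices XBP1 mRNA, PERK slows translation and raises ATF4 and CHOP (gene DDIT3), and ATF6 is cleaved into a transcription factor, and together they raise chaperone and degradation genes through short promoter elements.

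The deposited values are log2 signals, and a gene's value was the mean over its kept probe sets. A gene was called at an adjusted p below 0.05 (limma, Benjamini-Hochberg over 16648 genes), and a change is a log2 difference between group means unless a fold is named. RBFOX2 itself was 9.59, 9.58 and 9.58 in the controls, 8.59, 8.54 and 8.51 under shRNA1, 9.10, 9.11 and 9.16 under shRNA2 and 8.82, 8.84 and 8.85 under shRNA3, so it was lower on every knockdown array. None of the genes that define blood cells (PTPRC, mean level 4.10) or endothelium had a mean level above 6.53, the cutoff for keeping a probe set, and neither did DCN and LUM of fibroblasts or JCHAIN of plasma cells, secretory cells rich in ER (3.86, 3.94 and 3.90). Of the same lists, 2 of 6 fibroblast markers with probe sets (COL1A1 at 7.91 and PDGFRB at 6.54) and 1 of 4 plasma cell markers (IRF4 at 7.11) lay above it, and no measured marker of either list was called with any hairpin. The summed signal of the fibroblast list was 1077 to 1129 in the controls and 1062 to 1072, 1035 to 1127 and 1069 to 1164 under shRNA1, shRNA2 and shRNA3. That of the plasma cell list was 1101 to 1205, then 1046 to 1101, 1085 to 1183 and 1114 to 1175. KRT18, VIM and the neurofilament genes NEFL and NEFM, which 293T cells are known to express, were all above it. Of 5 neuronal markers 3 were called with at least 1 hairpin, NEFL and NEFM higher and INA lower, and their summed signal was 3909 to 4069 in the controls, 3927 to 4162 with shRNA1, 3995 to 4176 with shRNA2 and 4198 to 4534 with shRNA3. Of 5 epithelial markers KRT8, KRT19 and CDH1 were called higher with shRNA3, and CDH1 also with shRNA2, with summed signals of 1587 to 1604, 1594 to 1645, 1591 to 1647 and 1679 to 1691. The part of these cell traits in the changes below was not tested. In RNA from whole cultures, fewer cells that express a gene and less of its RNA per cell cannot be told apart. Nothing in the labels says that the arrays of a group came from separate cultures, so each p-value reflects only how far these particular arrays spread, and that spread may be technical.

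The promoters of 31 of the 36 genes were found in a table of RefSeq windows (GRCh38.p14, 300 bases each, 250 of them before the annotated start, read 5′ to 3′ on the gene's strand). They are shown because the elements through which ATF6 and XBP1 act can be read in them. On either strand, 7 of the 31 genes (22.6%) held an ER stress element, CCAAT then 9 bases then CCACG, against 0.0916% of 27305 genes with such a window. Another 3 genes (9.68%, against 0.0696%) held ER stress element II, ATTGG then 1 base then CCACG. The core of the unfolded protein response element, TGACGTG, was in 3 (9.68%, against 2.40%), and that of the C/EBP-ATF element bound by ATF4 and CHOP, TGATG then 1 base then AA, was in 1 (3.23%, against 4.46%). In HYOU1 a TGACGTG overlapped an ER stress element II. A match is a description of letters, not a site shown to be bound. The full windows of HSPA5, XBP1 and HERPUD1 are printed, with the letters of each motif in capitals. These genes held a motif and their RNA was called higher with both shRNA1 and shRNA2. ERN1, FKBP9 and FKBP10 were also called higher with both, but the windows of ERN1 and FKBP9 held none of the motifs and FKBP10 had no window. XBP1 has another window, without a match, that is not printed.
HSPA5 (chr9:125241294-125241593, minus strand, ER stress element): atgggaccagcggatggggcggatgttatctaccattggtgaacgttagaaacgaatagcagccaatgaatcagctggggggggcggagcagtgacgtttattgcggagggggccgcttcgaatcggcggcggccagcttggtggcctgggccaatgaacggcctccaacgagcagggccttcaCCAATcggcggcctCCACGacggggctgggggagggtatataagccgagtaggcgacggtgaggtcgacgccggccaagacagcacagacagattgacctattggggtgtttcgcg
XBP1 (chr22:28800520-28800819, minus strand, ER stress element): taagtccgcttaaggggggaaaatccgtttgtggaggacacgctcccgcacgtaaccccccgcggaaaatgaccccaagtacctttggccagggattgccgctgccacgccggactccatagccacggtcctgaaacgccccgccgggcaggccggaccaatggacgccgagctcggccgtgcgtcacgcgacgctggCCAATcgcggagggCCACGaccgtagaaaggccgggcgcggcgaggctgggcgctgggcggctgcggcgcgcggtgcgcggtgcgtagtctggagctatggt
HERPUD1 (chr16:56931892-56932191, plus strand, C/EBP-ATF core on the other strand, then ER stress element II): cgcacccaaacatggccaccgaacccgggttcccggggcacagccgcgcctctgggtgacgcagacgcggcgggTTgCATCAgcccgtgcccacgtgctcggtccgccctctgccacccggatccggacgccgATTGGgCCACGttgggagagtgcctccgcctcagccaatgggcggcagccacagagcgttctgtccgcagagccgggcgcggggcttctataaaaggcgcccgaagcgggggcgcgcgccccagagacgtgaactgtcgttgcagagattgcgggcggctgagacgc
For the other genes with either ER stress element only the match is printed, on the strand that reads in the motif's direction and with the fixed letters in capitals.
CALR: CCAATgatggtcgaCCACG
CRELD2: CCAATccgagttcgCCACG
PDIA6: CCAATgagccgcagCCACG
CANX: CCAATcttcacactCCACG
HSP90B1, upstream match: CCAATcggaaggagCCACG
HSP90B1, downstream match: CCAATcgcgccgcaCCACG
HYOU1, both matches: ATTGGaCCACG
SDF2L1: ATTGGtCCACG

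**Figure D1:**
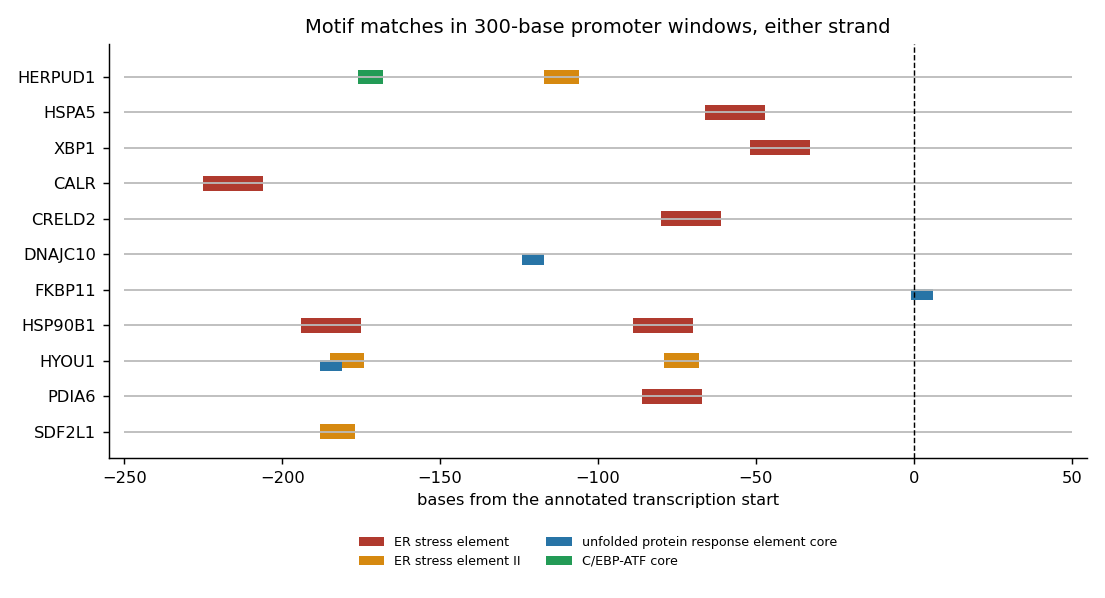
Positions of the motif matches in the 300-base promoter windows of 11 genes (CANX, whose element falls in several windows, is left out), in bases from the annotated transcription start on the x axis, coloured by motif. XBP1, PDIA6 and FKBP11 each have another window, without a match, that is not drawn. HSPA5 and XBP1 each hold 1 ER stress element close before the start, HERPUD1 holds an ER stress element II and a C/EBP-ATF core, and CALR holds its element farther upstream.

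Genes with the same element did not move alike. With shRNA1, HSPA5 and XBP1 rose by 0.26 and 0.28 (adjusted p = 0.000779 and 0.00203) while CALR fell by 0.16 (adjusted p = 0.0085), and CANX, PDIA6 and CRELD2 were not called (changes of 0.07, 0.02 and -0.06). With each array's median signal over the probe sets as the gene value, XBP1 and CALR were not called (0.24 and -0.13, adjusted p = 0.0884 and 0.152). With shRNA2, HERPUD1 rose by 0.33 while HYOU1 and SDF2L1, which hold the same element II, fell by 0.22 and 0.12. Neither CLGN nor FKBP7, FKBP9 or ERN1, which had some of the clearest changes, held any of the 4 motifs in the window.

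Against control, 22 of the 35 genes were called with at least 1 hairpin, and the balance of higher and lower calls differed between hairpins. The share of all genes called with at least 1 hairpin was not counted, so shares are given for each hairpin. With shRNA1, 10 genes were called higher and 3 lower, where 10.1% of all genes tested were called (5.99% higher and 4.07% lower). With shRNA2, 7 were higher and 5 lower (all genes 14.5%, 5.92% higher and 8.63% lower). With shRNA3, 4 were higher and 9 lower (all genes 26.8%, 12% higher and 14.8% lower). The share called was thus 37.1%, 34.3% and 37.1% of the 35 genes. Their median changes were 0.04, -0.02 and -0.06, against -0.01, 0.00 and 0.02 over all genes. The 3 contrasts share the same 3 control arrays and are not independent of each other. Not called with any hairpin were 13 genes (CANX, PDIA3, PDIA6, P4HB, DNAJC10, ATF6, SYVN1, EDEM1, EDEM2, EDEM3, DERL1, DERL3 and FKBP11), with changes between -0.13 and 0.12.

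**Figure D2:**
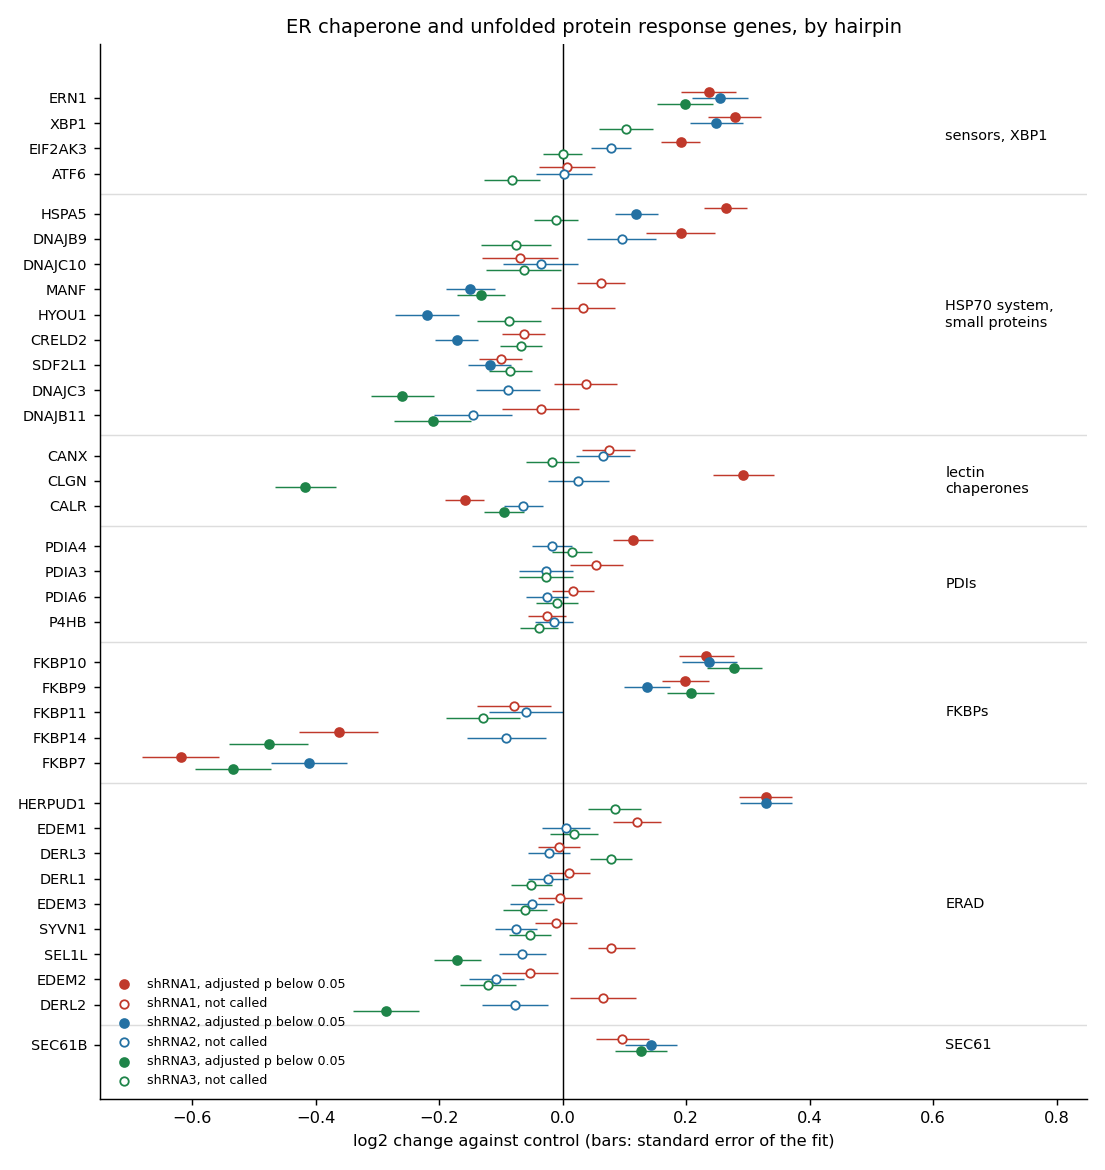
Log2 change against control of the 35 measured genes (x axis), grouped by role, with 1 point per hairpin, bars of 1 standard error from the fit (3 arrays per group) and filled points for an adjusted p below 0.05. FKBP7 lies lowest at -0.62, -0.41 and -0.53, HERPUD1 highest at 0.33 with shRNA1 and shRNA2, and CLGN lies on both sides of 0, at 0.29 with shRNA1 and -0.42 with shRNA3.

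Of the sensors, ERN1 rose with every hairpin, whereas ATF6 was not called with any. The ERN1 gene value was 8.03, 8.07 and 8.10 in the controls, 8.27, 8.34 and 8.31 under shRNA1, 8.21, 8.37 and 8.39 under shRNA2 and 8.30, 8.27 and 8.24 under shRNA3. All 9 knockdown arrays lay above all 3 controls, and 40 of the 44 kept probe sets were higher with all 3 hairpins. The changes were 0.24, 0.25 and 0.20 (SE 0.05; adjusted p = 0.00603, 0.00336 and 0.00681). XBP1, the transcription factor whose mRNA IRE1 splices, was 10.16, 10.15 and 10.10 in the controls, 10.37, 10.44 and 10.44 under shRNA1, 10.48, 10.38 and 10.30 under shRNA2 and 10.27, 10.20 and 10.25 under shRNA3. Here too no knockdown array reached down to the controls, but the rise passed the test with shRNA1 (0.28) and shRNA2 (0.25; SE 0.04; adjusted p = 0.00203 and 0.0031) and not with shRNA3 (0.10; adjusted p = 0.0922). With each array's median signal over the probe sets as the gene value, both XBP1 calls were lost (changes of 0.24 and 0.23, adjusted p = 0.0884 and 0.0702). The 2 forms of XBP1 mRNA were not separated here, and no XBP1 probe set had a called splicing index. EIF2AK3 rose with shRNA1 by 0.19 (SE 0.03; adjusted p = 0.00309) and changed by 0.08 and 0.00 with shRNA2 and shRNA3 (adjusted p = 0.119 and 0.995). Its shRNA1 call was also lost with the median signal as the gene value (change of 0.14, adjusted p = 0.187). ATF6 changed by 0.01, 0.00 and -0.08 (adjusted p = 0.946, 0.988 and 0.18).

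HSPA5, the central chaperone and the usual marker of the response, was higher with 2 of the 3 hairpins. Its value was 11.59, 11.59 and 11.60 in the controls, 11.80, 11.90 and 11.86 under shRNA1, 11.75, 11.70 and 11.69 under shRNA2 and 11.62, 11.57 and 11.56 under shRNA3. The shRNA1 and shRNA2 arrays lay above the controls without overlap and the shRNA3 arrays lay on both sides of them. The change with shRNA1 was 0.26 (SE 0.04; adjusted p = 0.000779), a 1.20-fold rise seen in all 19 kept probe sets. With shRNA2 it was 0.12 (SE 0.04; adjusted p = 0.0365), a call that was lost with the replicate number as a block (adjusted p = 0.0549), and with shRNA3 it was -0.01 (adjusted p = 0.834). By group mean, HSPA5 was highest with shRNA1, then shRNA2, then control and shRNA3. Between hairpins it was called lower with shRNA3 than with shRNA1 (adjusted p = 0.000769). It was not called between shRNA2 and shRNA1 or between shRNA3 and shRNA2 (adjusted p = 0.0712 and 0.0577). RBFOX2 was lowest with shRNA1, then shRNA3, then shRNA2, and a relation of HSPA5 to its level was not tested.

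Of the other genes grouped with HSPA5, 1 was called higher and 6 were called lower with at least 1 hairpin. The J-domain cochaperone DNAJB9 (ERdj4) rose with shRNA1 by 0.19 (SE 0.06; adjusted p = 0.0462), with changes of 0.10 and -0.08 with the others. DNAJB11 (ERdj3) and DNAJC3 (P58IPK) fell with shRNA3, by 0.21 and 0.26 (adjusted p = 0.0247 and 0.00329), and all 24 kept probe sets of DNAJC3 were lower. Neither was called with each array's median signal as the gene value (-0.22 and -0.22, adjusted p = 0.378 and 0.0576). The reductase DNAJC10 (ERdj5) was not called (changes of -0.07, -0.04 and -0.06). HYOU1, the nucleotide exchange factor of HSPA5, fell with shRNA2 by 0.22 (SE 0.05; adjusted p = 0.0134) in 66 of 75 probe sets, and changed by 0.03 and -0.09 with shRNA1 and shRNA3. SDF2L1, which works with DNAJB11, and the small secreted stress proteins CRELD2 and MANF were lower with shRNA2, by 0.12, 0.17 and 0.15 (adjusted p = 0.0356, 0.00645 and 0.0214), and MANF was also lower with shRNA3, by 0.13 (adjusted p = 0.0238). With each array's median signal as the gene value, the CRELD2 call (-0.13) and both MANF calls (-0.08 and -0.07) were lost (adjusted p = 0.239, 0.584 and 0.551). Exon probe sets alone lost the calls of SDF2L1 with shRNA2 (-0.06, adjusted p = 0.217) and MANF with shRNA3 (-0.09, adjusted p = 0.0855). Of the 9 measured genes of this group 2 were higher and 0 lower with shRNA1 (at an unadjusted p below 0.05, 2 and 1), 1 higher and 4 lower with shRNA2, and 0 higher and 3 lower with shRNA3 (at an unadjusted p below 0.05, 0 and 4). The shares called were 22.2%, 55.6% and 33.3%, against 10.1%, 14.5% and 26.8% of all genes. With shRNA3 the share was thus near that of all genes.

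The lectin chaperones bind the sugar of newly made glycoproteins, and CLGN (calmegin), the relative of calnexin best known from testis, was the gene whose direction depended on the hairpin. Its value was 8.28, 8.18 and 8.19 in the controls, 8.45, 8.60 and 8.48 under shRNA1, 8.22, 8.24 and 8.26 under shRNA2 and 7.83, 7.87 and 7.70 under shRNA3. The shRNA1 arrays lay above all controls, the shRNA3 arrays below all of them, and the shRNA2 arrays within their range. CLGN rose 1.22-fold with shRNA1 (log2 0.29, SE 0.05; adjusted p = 0.00309; 29 of 31 probe sets higher) and was 1.34-fold lower with shRNA3 (log2 -0.42; adjusted p = 0.00016; 27 of 31 lower), with a change of 0.02 with shRNA2 (adjusted p = 0.784). It was the 1 gene among the 35 called in opposite directions against control, and the share of all genes called so was not counted. CALR (calreticulin) fell with shRNA1 by 0.16 (SE 0.03; adjusted p = 0.0085) and with shRNA3 by 0.10 (adjusted p = 0.0408), and 20 of its 22 probe sets were lower with all 3 hairpins. Both CALR calls were lost with each array's median signal as the gene value (-0.13 and -0.10, adjusted p = 0.152 and 0.192). CANX (calnexin) changed by 0.07, 0.07 and -0.02 and was not called. Of the disulfide isomerases PDIA3, PDIA4, PDIA6 and P4HB, PDIA4 alone was called, higher with shRNA1 by 0.11 (SE 0.03; adjusted p = 0.041), and the other 3 changed by -0.04 to 0.05.

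**Figure D3:**
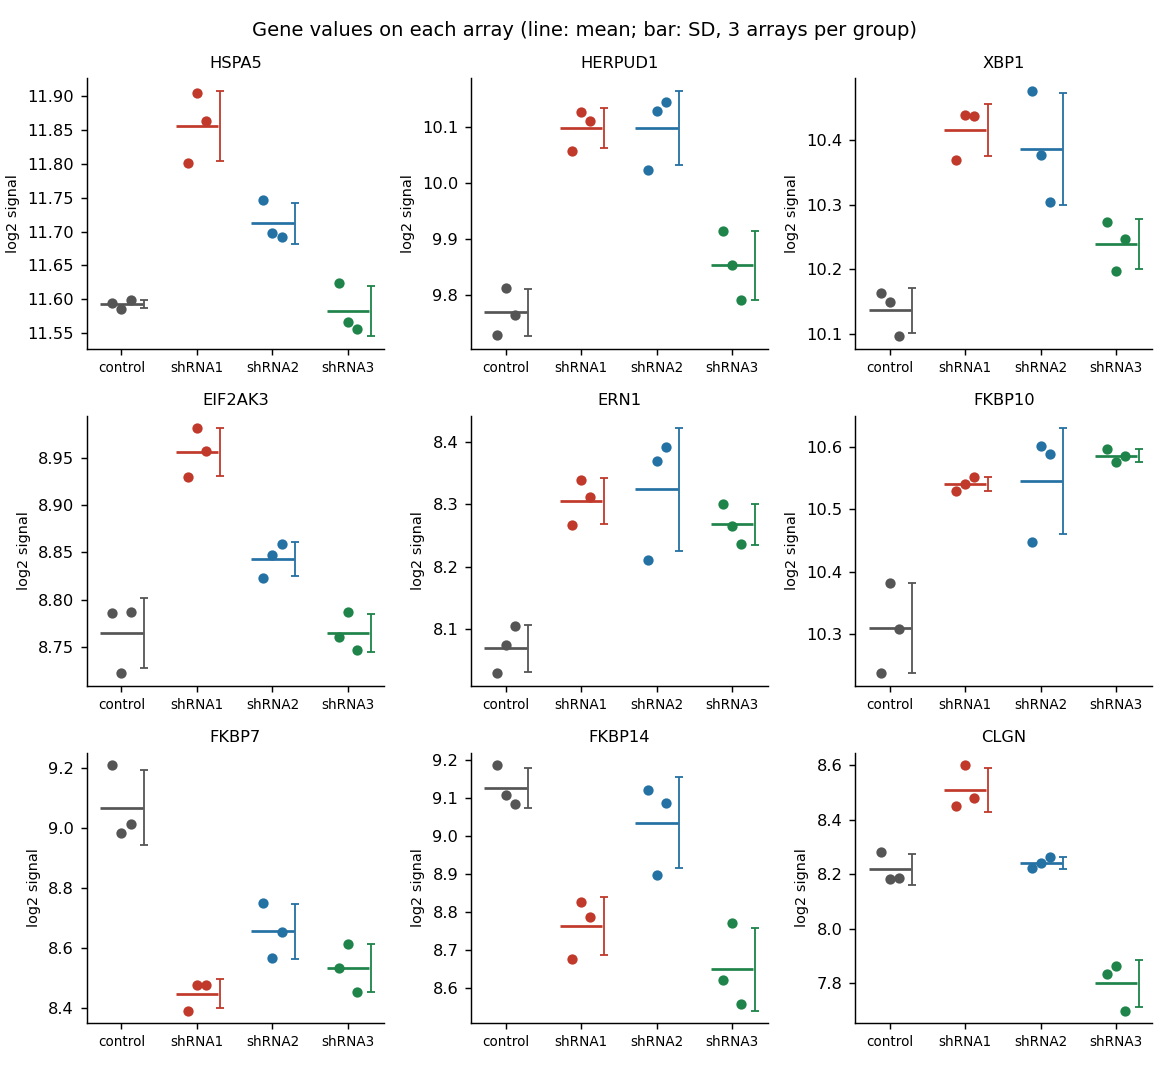
Gene values (log2 signal, y axis, a separate range for each gene) of 9 genes on each array, with the group mean as a line and its SD as a bar (3 arrays per group). ERN1, FKBP10 and XBP1 are above the controls on all knockdown arrays, FKBP7 is below them on all, and CLGN is above with shRNA1 and below with shRNA3.

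The FK506-binding prolyl isomerases (FKBPs) of the ER held calls with all 3 hairpins in both directions. FKBP7 was 9.21, 8.98 and 9.01 in the controls, 8.39, 8.48 and 8.48 under shRNA1, 8.75, 8.57 and 8.65 under shRNA2 and 8.53, 8.62 and 8.45 under shRNA3. Every knockdown array lay below every control. FKBP7 fell to 65.1%, 75.2% and 69.1% of the control signal (log2 -0.62, -0.41 and -0.53, SE 0.06; adjusted p = 0.000107, 0.00131 and 0.000143), and 13 of its 15 probe sets were lower with all 3 hairpins. FKBP10 (FKBP65), a chaperone of procollagen, was 10.24, 10.38 and 10.31 in the controls, 10.53, 10.54 and 10.55 under shRNA1, 10.45, 10.60 and 10.59 under shRNA2 and 10.60, 10.58 and 10.59 under shRNA3. It rose by 0.23, 0.24 and 0.28 (SE 0.04; adjusted p = 0.00603, 0.0045 and 0.000977), again without overlap, and 37 of 42 probe sets were higher with all 3.

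FKBP9 was 8.97, 9.03 and 9.02 in the controls, 9.17, 9.20 and 9.25 under shRNA1, 9.10, 9.19 and 9.14 under shRNA2 and 9.22, 9.26 and 9.16 under shRNA3. It rose by 0.20, 0.14 and 0.21 (SE 0.04; adjusted p = 0.00584, 0.0277 and 0.00206), in 37 of 43 probe sets with all 3 hairpins. FKBP14 (FKBP22), which acts on procollagen like FKBP10, was 9.19, 9.11 and 9.08 in the controls, 8.68, 8.82 and 8.79 under shRNA1, 9.12, 8.90 and 9.09 under shRNA2 and 8.62, 8.77 and 8.56 under shRNA3. It fell to 77.8% of control with shRNA1 and 71.9% with shRNA3 (log2 -0.36 and -0.48, SE 0.06; adjusted p = 0.00398 and 0.000347), while the shRNA2 arrays overlapped the controls (change of -0.09; adjusted p = 0.368). FKBP11 changed by -0.08, -0.06 and -0.13 and was not called.

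ERN1, FKBP9 and FKBP10 were thus called higher, and FKBP7 lower, with all 3 hairpins, against 2.50% of all genes higher and 2.17% lower. For ERN1, FKBP7 and FKBP10 this held in all 24 alternative settings run. FKBP9 lost its call with shRNA2 without control replicate 1 or 3 or shRNA2 replicate 2 or 3 (adjusted p = 0.0509 to 0.111), and with each array's median signal over the probe sets as the gene value its changes of 0.15, 0.09 and 0.12 were not called with any hairpin (adjusted p = 0.199, 0.404 and 0.218). Without a level filter FKBP9 was not called with shRNA1 or shRNA2 (adjusted p = 0.0542 and 0.0908). With array weights, or with the 2 groups fitted alone, its shRNA2 call was lost (0.0548 and 0.0821).

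Because the array reads exons and exon-exon junctions separately, the use of parts of these genes could be compared too. The splicing index of a probe set is its log2 signal after subtraction of the array's mean over the gene's remaining probe sets, and a call needed both a 1.5-fold difference and an adjusted p under 0.05. Of 1133 probe sets in the 35 genes, 3 had a called index under shRNA1, 3 under shRNA2 and 6 under shRNA3 (0.265%, 0.265% and 0.530%, against 0.129%, 0.220% and 0.195% of all 417377). In FKBP14 the exon probe set PSR07019397.hg.1 rose while the rest of the gene fell. Its signal was 7.19, 7.20 and 7.43 in the controls, 8.58, 8.60 and 8.49 under shRNA1, 7.81, 7.61 and 7.90 under shRNA2 and 7.90, 8.42 and 8.28 under shRNA3, every knockdown array above every control. The mean of the other 11 probe sets changed by -0.51, -0.15 and -0.60. The splicing index was therefore higher by 1.80, 0.65 and 1.53 (SE 0.13; adjusted p = 4.74e-05, 0.0392 and 0.000248), and it was lower with shRNA2 than with shRNA1 by 1.15 (adjusted p = 0.00907).

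**Figure D4:**
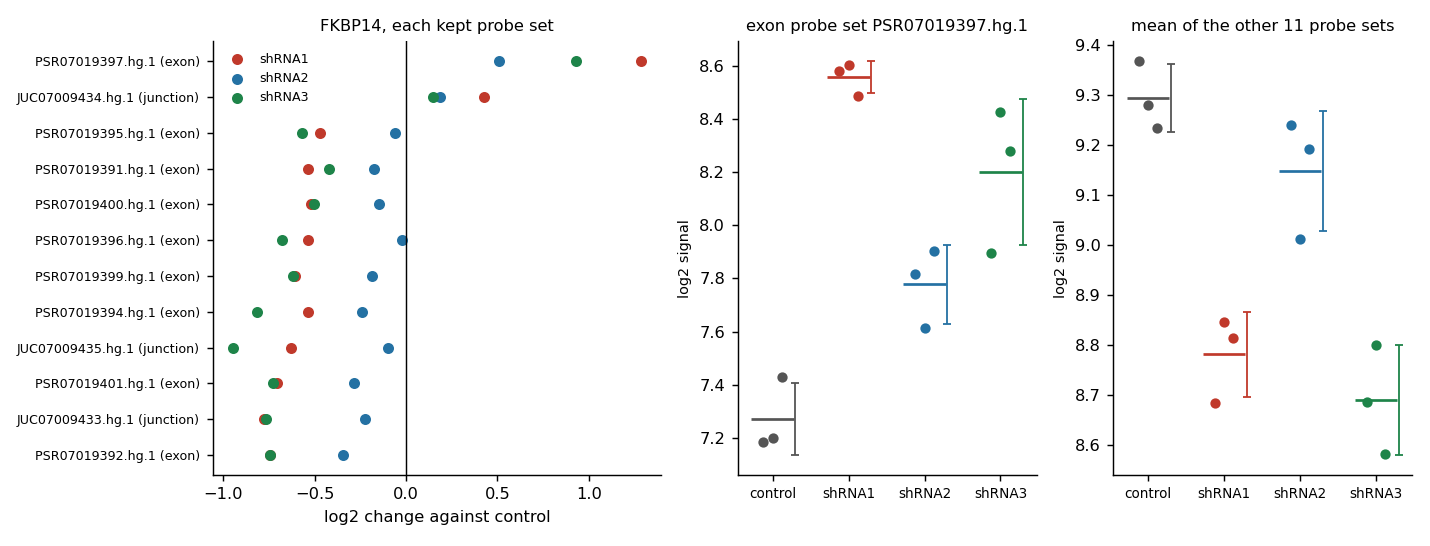
FKBP14 by probe set. The left panel gives the log2 change against control of each of its 12 kept probe sets, with 1 point per hairpin, and the other panels give the log2 signal on each array of the exon probe set PSR07019397.hg.1 and of the mean of the other 11 (line, mean; bar, SD, 3 arrays per group). Probe sets PSR07019397.hg.1 and JUC07009434.hg.1 lie to the right of 0 with all 3 hairpins, and the other 10 lie to the left.

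A junction probe set of FKBP14, JUC07009434.hg.1, also rose against the rest of the gene, by 0.86 with shRNA1 and 0.68 with shRNA3 (adjusted p = 0.013 and 0.0311). No genome position of either probe set was used here, so whether they lie next to each other is not known. In FKBP7 the exon probe sets PSR02040860.hg.1 (0.64 with shRNA1 and 0.79 with shRNA3) and PSR02040879.hg.1 (0.66 with shRNA3) had a called splicing index, above the rest of the gene. Their own signals changed by -0.02, -0.12 and 0.20, and by -0.14, -0.04 and 0.08, with the 3 hairpins, at 6.83 in the controls against 6.81, 6.70 and 7.03, and at 8.47 against 8.33, 8.43 and 8.55. The CLGN exon probe set PSR04022159.hg.1 likewise stayed at 6.57, 6.60, 6.70 and 6.74 (control, then shRNA1 to shRNA3) while the gene fell with shRNA3 (splicing index 0.61; adjusted p = 0.0216), and its mean level over the arrays, 6.65, was close to the cutoff of 6.53. Single junctions were called in ERN1 (JUC17013426.hg.1, 0.71 with shRNA2), HYOU1 (JUC11015170.hg.1, 0.62 with shRNA2) and CANX (JUC05007926.hg.1, -0.73 with shRNA3). In the controls the ERN1 and HYOU1 junctions were near the cutoff, at means of 6.58 and 6.75. The ERN1 junction was below it in control replicate 3, at 6.30. The CANX junction had a mean level of 6.56, also close to the cutoff, and was at 6.24, below it, with shRNA3. Of the 12 calls, those of PSR07019397.hg.1 with shRNA1 and shRNA3 held in all 18 alternatives, and each of the other 10 was lost without at least 1 array. With the replicate number as a block none of the 3 calls with shRNA2 remained (adjusted p = 0.0558 for PSR07019397.hg.1, 0.0719 for ERN1 and 0.0648 for HYOU1), with 5 probe sets at an unadjusted p below 0.05. The arrays whose removal ended a splicing call were as follows. The call was lost for JUC05007926.hg.1 with shRNA3 without control replicate 1 or 2, shRNA1 replicate 2 or any shRNA3 replicate (adjusted p = 0.053 to 0.092). The call also ended for JUC07009434.hg.1 with shRNA1 without any control replicate or shRNA1 replicate 1 or 3 (adjusted p = 0.0507 to 0.0678). It was lost for JUC07009434.hg.1 with shRNA3 without any control replicate or shRNA3 replicate 1 or 3 (adjusted p = 0.0549 to 0.0996). The call also ended for JUC11015170.hg.1 with shRNA2 without any control replicate, shRNA1 replicate 3 or any shRNA2 replicate (adjusted p = 0.0537 to 0.126). Calls also ended for JUC17013426.hg.1 with shRNA2 without any control replicate, any shRNA1 replicate, any shRNA2 replicate or shRNA3 replicate 2 or 3 (adjusted p = 0.0566 to 0.139), and for PSR02040860.hg.1 with shRNA1 without control replicate 1 or 2, any shRNA1 replicate, shRNA2 replicate 1 or 3 or any shRNA3 replicate (adjusted p = 0.0543 to 0.153). The same held for PSR02040860.hg.1 with shRNA3 without control replicate 1 or 2 or shRNA3 replicate 1 or 3 (adjusted p = 0.0557 to 0.0775), and for PSR02040879.hg.1 with shRNA3 without control replicate 1 or 2 or shRNA3 replicate 1 or 3 (adjusted p = 0.0549 to 0.0865). Finally it ended for PSR04022159.hg.1 with shRNA3 without control replicate 1 or 3 or shRNA3 replicate 1 or 3 (adjusted p = 0.0641 to 0.0886), and for PSR07019397.hg.1 with shRNA2 without any control replicate, shRNA1 replicate 2 or 3 or any shRNA2 replicate (adjusted p = 0.0543 to 0.0947).

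Among the genes of ER-associated degradation, which extracts misfolded proteins for the proteasome, HERPUD1 rose and 2 partners fell, with different hairpins. HERPUD1, a membrane protein that organises the retrotranslocation complex, was 9.73, 9.81 and 9.77 in the controls, 10.06, 10.13 and 10.11 under shRNA1, 10.02, 10.13 and 10.14 under shRNA2 and 9.91, 9.85 and 9.79 under shRNA3. The shRNA1 and shRNA2 arrays lay above the controls and the shRNA3 arrays overlapped them. It rose 1.26-fold with both shRNA1 and shRNA2 (log2 0.33 and 0.33, SE 0.04; adjusted p = 0.00069 and 0.000523), and its change with shRNA3 was 0.08 (adjusted p = 0.152). SEL1L, the adaptor of the ubiquitin ligase SYVN1 (HRD1), fell with shRNA3 by 0.17 (SE 0.04; adjusted p = 0.00647), whereas SYVN1 was not called (changes of -0.01, -0.08 and -0.05). The SEL1L call was lost with each array's median signal as the gene value (-0.16, adjusted p = 0.0692). The derlins are channel-like membrane proteins of the same complex, and DERL2 was 9.15, 9.08 and 9.004 in the controls, 9.08, 9.14 and 9.21 under shRNA1, 9.10, 8.88 and 9.02 under shRNA2 and 8.83, 8.77 and 8.79 under shRNA3. It fell with shRNA3 by 0.29 (SE 0.05; adjusted p = 0.00242; 13 of 14 probe sets lower), and the median of the changes of its probe sets was -0.31. With each array's median signal over the probe sets as the gene value the change was -0.02 (adjusted p = 0.805). DERL1 and DERL3 and the mannosidase-like EDEM1, EDEM2 and EDEM3 were not called, with changes of -0.12 to 0.12. By hairpin, 1 of the 9 degradation genes was called higher with shRNA1 and 1 with shRNA2, and 2 were called lower with shRNA3. The shares called, 11.1%, 11.1% and 22.2%, were near or below the 10.1%, 14.5% and 26.8% of all genes. SEC61B, a subunit of the translocation channel, was higher with shRNA2 by 0.14 and with shRNA3 by 0.13 (SE 0.04; adjusted p = 0.0372 and 0.0395), and by 0.10 with shRNA1 (adjusted p = 0.165). Its call with shRNA2 was lost with the replicate block (adjusted p = 0.0529).

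Several of the smaller calls were lost when 1 array was left out, which also leaves fewer arrays for the test. None of these changes reversed direction, and CALR with shRNA3, for example, stayed between -0.098 and -0.093. With shRNA1, DNAJB9 was no longer called without control replicate 2 or 3, any shRNA1 replicate or shRNA3 replicate 2 (adjusted p = 0.0592 to 0.171). PDIA4 was not called without any control or shRNA1 replicate or shRNA3 replicate 1 or 3 (0.0525 to 0.138). With shRNA2 the calls lost were those of HSPA5 without any control replicate or shRNA2 replicate 1 or 2 (0.0737 to 0.0908) and HYOU1 without control replicate 3 or shRNA2 replicate 2 (0.062 and 0.0654). MANF lost its call without control replicate 1 or 3 or shRNA2 replicate 2 or 3 (0.0595 to 0.079). SDF2L1 lost it without control replicate 1 or 3, shRNA1 replicate 2 or shRNA2 replicate 2 or 3 (0.0513 to 0.124), and SEC61B without control replicate 2 or 3, shRNA1 replicate 2 or shRNA2 replicate 1 or 3 (0.0529 to 0.128). With shRNA3 they were those of CALR without any control or shRNA3 replicate or shRNA1 replicate 2 (0.0582 to 0.105), DNAJB11 without control replicate 1 or shRNA3 replicate 1 or 2 (0.0515 to 0.113). MANF was not called without control replicate 1 or 3 or shRNA3 replicate 1 or 3 (0.0569 to 0.0824), and SEC61B without control replicate 2 or 3, shRNA1 replicate 2 or 3 or any shRNA3 replicate (0.0512 to 0.135). The count of genes called with shRNA2 fell from 12 to 6 without control replicate 3, and to 7 without shRNA2 replicate 2.

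The hairpins were also compared directly, with the control arrays entering only the shared estimate of spread. Where shRNA3 and shRNA1 differed, the ER genes were lower with shRNA3. Of the 35 genes, 10 were called lower and 0 higher (at an unadjusted p below 0.05, 14 and 1), against 7.10% of all genes called, 2.95% higher and 4.15% lower, and 27 of 35 differences were negative (median -0.08, all genes 0.02). The largest was that of CLGN, at -0.71 (SE 0.05; adjusted p = 1.28e-05). DERL2 was lower by 0.35, DNAJC3 by 0.30, HSPA5 by 0.27, DNAJB9 by 0.27, SEL1L by 0.25, HERPUD1 by 0.24, MANF by 0.20, EIF2AK3 by 0.19 and XBP1 by 0.18 (adjusted p = 0.000769 for HSPA5 to 0.0319 for XBP1). By role they were 4 genes of the HSPA5 system, 1 lectin chaperone, a sensor and XBP1, and 3 genes of degradation. DNAJB9 lost its call without shRNA1 replicate 1 or 2 or shRNA3 replicate 3 (adjusted p = 0.0564 to 0.0759), MANF without shRNA1 replicate 3 or shRNA3 replicate 1 or 3 (0.0506 to 0.0607) and XBP1 without any single replicate of either group (0.0542 to 0.102).

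**Figure D5:**
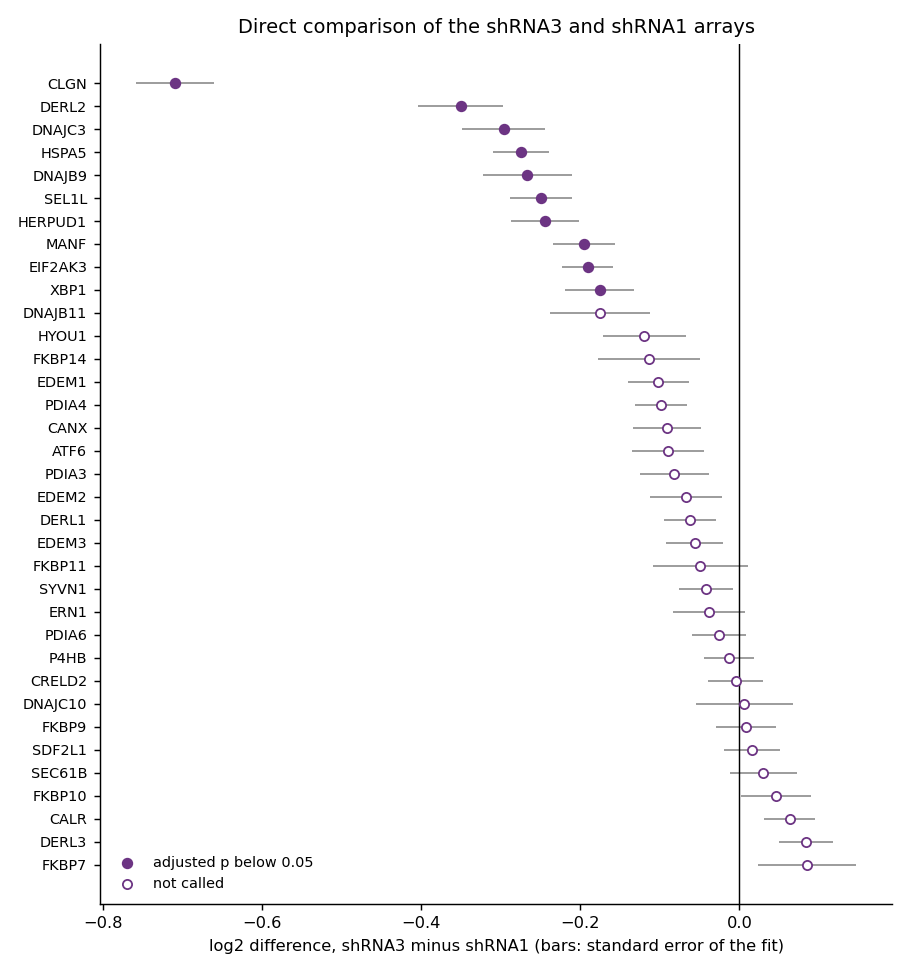
Log2 difference between the shRNA3 and shRNA1 arrays (x axis) for each of the 35 measured genes, ordered by size, with bars of 1 standard error from the fit (3 arrays per group) and filled points for an adjusted p below 0.05. The 10 called genes all lie left of 0, from CLGN at -0.71 to XBP1 at -0.18.

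Between shRNA3 and shRNA2, 4 genes were lower and 0 higher (at an unadjusted p below 0.05, 10 and 3; all genes 3.56% called, 1.54% higher and 2.02% lower). They were CLGN (-0.44, SE 0.05; adjusted p = 0.000201), FKBP14 (-0.39, SE 0.06; adjusted p = 0.00418), HERPUD1 (-0.24, SE 0.04; adjusted p = 0.00569) and DERL2 (-0.21, SE 0.05; adjusted p = 0.0473). Between shRNA2 and shRNA1, 3 were lower and 0 higher (at an unadjusted p below 0.05, 11 and 3; all genes 1.19% called, 0.444% higher and 0.745% lower), namely CLGN (-0.27), HYOU1 (-0.25) and MANF (-0.21; adjusted p = 0.0161, 0.0289 and 0.0161). ERN1 and the FKBP genes other than FKBP14 were not called between any hairpins, with differences of -0.12 to 0.21 (SE 0.04 to 0.06), which does not show that they were equal. The DERL2 call was lost without control replicate 2, any shRNA1 or shRNA3 replicate or shRNA2 replicate 1 or 3 (adjusted p = 0.0542 to 0.137). Of the shRNA2 minus shRNA1 calls, CLGN was lost without shRNA1 replicate 2 or 3 or shRNA2 replicate 2 (0.0508 to 0.0901), HYOU1 without shRNA1 or shRNA2 replicate 2 or 3 (0.0649 to 0.147) and MANF without shRNA1 replicate 2 or 3 or shRNA2 replicate 2 (0.054 to 0.0954).

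Other genes of the same pathways were counted from lists. In the ATF4 and CHOP branch, which PERK controls together with other eIF2alpha kinases, 11 of 18 measured genes were higher with shRNA1, 11 with shRNA2 and 8 with shRNA3 (all genes 5.99%, 5.92% and 12%), against 0, 1 and 1 lower (all genes 4.07%, 8.63% and 14.8%), with median changes of 0.20, 0.18 and 0.10 (at an unadjusted p below 0.05, 0, 1 and 1 lower). DDIT3, the gene of CHOP, rose by 0.73, 0.60 and 0.28 (SE 0.07; adjusted p = 0.000125, 0.000391 and 0.0144), the stress-induced repressor ATF3 by 0.54, 0.53 and 0.32, and DDIT4, an mTORC1 inhibitor, by 0.74, 0.68 and 0.83. Of 24 other ER oxidoreductases and chaperones, 4, 3 and 4 were higher and 1, 5 and 2 lower (medians 0.03, -0.01 and -0.03). The shares called were 20.8%, 33.3% and 25%, against 10.1%, 14.5% and 26.8% of all genes. With shRNA3 the share was thus near that of all genes. ERO1B, which oxidises the disulfide isomerases, rose by 0.28 and 0.26 with shRNA1 and shRNA2 and changed by 0.11 with shRNA3, while SDF2, the paralog of SDF2L1, fell by 0.16, 0.24 and 0.23, and TMX3, a membrane oxidoreductase, rose by 0.27 and 0.17 with shRNA1 and shRNA3.

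Of 23 genes of signal recognition and translocation, 9 were called lower, 1 higher and 13 not at all with shRNA3, where 14.8% of all genes were called lower (2 higher and 0 lower with shRNA1, or 2 and 4 at an unadjusted p below 0.05, and 1 and 3 with shRNA2; medians -0.02, -0.04 and -0.10). The shares called were 8.7%, 17.4% and 43.5%, against 10.1%, 14.5% and 26.8% of all genes. With shRNA1 and shRNA2 they were thus near those of all genes. SRPRA, a subunit of the signal recognition particle receptor, rose by 0.26 with shRNA1 and 0.22 with shRNA3. SRPRB, the other subunit, fell by 0.20 and the channel gene SEC61A2 by 0.30 with shRNA3. Of 18 further degradation genes 2, 2 and 6 were lower (all genes 4.07%, 8.63% and 14.8%, so that the count with shRNA2 was near the share over all genes) and 0 higher with any hairpin (at an unadjusted p below 0.05, 3, 0 and 1 higher). The ATPase VCP, which pulls proteins from the ER membrane, fell by 0.13, 0.17 and 0.16 (SE 0.03; adjusted p = 0.0274, 0.00653 and 0.0051), and its cofactor UFD1 and the translocon-associated TRAM2 fell with shRNA3 by 0.31 and 0.22. In N-glycan transfer and trimming, 1 gene was higher and 1 lower of 17 with shRNA1 and with shRNA2 and 0 were called with shRNA3 (at an unadjusted p below 0.05, 0 higher and 1 lower). The share called was 11.8% with shRNA1 and with shRNA2, near the 10.1% and 14.5% of all genes. With shRNA3, 26.8% of all genes were called. UGGT2, a folding sensor of glycoproteins, rose by 0.20 with shRNA1, the cargo receptor LMAN1 by 0.18 with shRNA2, and OST4, a small oligosaccharyltransferase subunit, fell by 0.14 and 0.13 with shRNA1 and shRNA2. None of these lists was tested as a set.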

How the data were processed

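Total RNA, extracted with Trizol, was measured on Affymetrix exon and junction arrays. The deposited table holds log2 signals of 914585 probe sets on 12 arrays, which the authors made with Affymetrix Expression Console and RMA, per the submitters' processing notes. No source used here gives their versions or the build. RMA gives the arrays one common distribution, so a shift of all genes together would not be seen. Array medians ran from 7.24 to 7.27.

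Gene symbols came from the array annotation (672085 probe sets had 1 symbol, 39483 several and 201487 none), and 2474 of 22085 symbols were updated through the reference table. Identical copies (26130) were counted once. Probe sets with a mean above the 40th percentile (log2 6.53) were kept, and a gene needed 3 of them, or 4 for the splicing index. The 4 groups were fitted together with limma 3.58.1 in R 4.3.3 (lmFit and eBayes, 8 residual degrees of freedom), after a test on simulated data, with Benjamini-Hochberg adjustment over 16648 genes or 417377 probe sets. There are 3 arrays in each group, a number that limits the precision. The files carry no genome position of a probe set, and strand was not used. Alternatives changed the level filter, the gene summary, the scaling, the fit, the replicate block and the arrays used. Same-numbered control and shRNA2 arrays deviated together (r 0.20 to 0.43), and those of the other 5 pairs of groups did not all do so (lowest r -0.32 to -0.13), so the block is reported beside results of shRNA2 against control and otherwise in the closing section. Differently numbered arrays also reached such values (r 0.38 for control replicate 2 and shRNA3 replicate 1), so pairing was neither shown nor excluded.

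The genes, lists and tests were chosen with earlier results of these data known. Values on every array are given for genes called with all 3 hairpins, or called with a difference of at least 0.3, and for HSPA5 and XBP1, which were added after their values were seen. Of each further list the 3 genes with the largest absolute mean change are named. A planned comparison of protein sequences was not run.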

Additional observations from a re-analysis of the deposited data

Results flagged for a closer look

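CLGN differed between hairpins in both comparisons with shRNA3, at -0.71 against shRNA1 and -0.44 against shRNA2, where the difference itself passed the test and was at least 0.3. DERL2 was lower with shRNA3 than with shRNA1 by the same measure, at -0.35, though with each array's median signal over the probe sets as the gene value it differed by -0.13 (adjusted p = 0.22). FKBP14 was lower with shRNA3 than with shRNA2, at -0.39.

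The probe sets that carry the symbols of both HSP90B1 and a microRNA gene entered no comparison, and 40 of 43 were above the level filter. Their mean was 11.17, 11.20 and 11.08 in the controls, 11.25, 11.35 and 11.30 under shRNA1, 11.33, 11.21 and 11.21 under shRNA2 and 11.25, 11.17 and 11.09 under shRNA3. All shRNA1 and shRNA2 arrays lay above all controls (changes of 0.15 and 0.10) and the shRNA3 arrays overlapped them (0.02), with no test run.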

How the results depend on the processing

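Over 24 alternatives, 24 of the 55 calls of single genes in 6 contrasts were kept throughout, in 9 genes (CLGN, EIF2AK3, ERN1, FKBP7, FKBP10, FKBP14, HERPUD1, HSPA5 and SEL1L). For EIF2AK3 and SEL1L only the call between shRNA3 and shRNA1 was kept, and their calls against control were not. For HSPA5 that call and the call with shRNA1 against control were kept, and the call with shRNA2 was not. Another 31 were lost in at least 1 and 0 reversed, and 29 of 155 values that were not called were called in at least 1. The median signal over the probe sets as gene value lost 28 calls, and left 7, 6 and 5 genes called with shRNA1, shRNA2 and shRNA3 and 5 between shRNA3 and shRNA1. Fitting the 2 groups compared alone left 6 with shRNA2 and 1 between shRNA2 and shRNA1, where no level filter also gave 1, and exon probe sets alone or an intensity trend gave 6. Array weights gave 17 between shRNA3 and shRNA1. Leaving out 1 array gave 11 to 14 genes with shRNA1, 6 to 12 with shRNA2, 9 to 15 with shRNA3, 0 to 4 between shRNA2 and shRNA1 (0 without shRNA1 replicate 2 or 3, by limma, with 13 and 12 at an unadjusted p below 0.05), 7 to 11 between shRNA3 and shRNA1, 3 to 6 between shRNA3 and shRNA2 and 3 to 5 with all 3 hairpins. The replicate block gave 12, 10 and 11 genes against control and 2, 10 and 4 between hairpins. Besides HSPA5 and SEC61B with shRNA2, it ended the calls of PDIA4 with shRNA1 (adjusted p = 0.0617), CALR and SEC61B with shRNA3 (0.0567 and 0.0542), HYOU1 between shRNA2 and shRNA1 (0.05003) and DERL2 between shRNA3 and shRNA2 (0.055), where DNAJB9 gained one (0.0431). In these comparisons the same-numbered arrays did not all deviate together, but the labels do not say whether the numbers pair the arrays. Of called splicing indices, the 60th percentile filter left 1, 1 and 3 and no minimum fold gave 9, 16 and 12. With shRNA2 there were 0 by limma without a level filter, with 2 groups or with the block (16, 5 and 5 at an unadjusted p below 0.05), and with shRNA3 1 without a filter and 2 with 2 groups. Leaving out 1 array gave 1 to 3, 0 to 3 and 1 to 7. The count of all genes called ranged over the settings and arrays left out from 493 to 3761 with shRNA1 (1675 as reported), 973 to 3323 with shRNA2 (2422), 2186 to 6236 with shRNA3 (4468), 79 to 229 between shRNA2 and shRNA1 (198), 291 to 5406 between shRNA3 and shRNA1 (1182) and 170 to 1485 between shRNA3 and shRNA2 (593). The cause of these changes was not tested, and with 3 arrays a group small differences cannot be resolved.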

Other observations

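The cytosolic and mitochondrial heat shock genes, which serve protein folding outside the ER, held lower calls and 0 higher ones (limma; 0 higher also at an unadjusted p below 0.05). Of 19 measured, 4, 2 and 9 were lower with shRNA1, shRNA2 and shRNA3, with medians of -0.09, -0.06 and -0.10. Over all genes 4.07%, 8.63% and 14.8% were called lower, so the count with shRNA2 was near that share. The HSP40 gene DNAJB1 fell by 0.21, 0.32 and 0.31 and the HSP70 cochaperone BAG3 by 0.19, 0.19 and 0.22, while DNAJA1 fell by 0.46 with shRNA3 and changed by -0.21 and -0.22 with the others.

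Among 17 other genes of stress sensing at the ER and Golgi, 3, 2 and 2 were higher and 4, 4 and 5 lower. Over all genes 5.99%, 5.92% and 12% were called higher and 4.07%, 8.63% and 14.8% lower. The count higher with shRNA3 was thus near the share over all genes. BAX, which binds IRE1 besides its part in apoptosis, fell by 0.21, 0.28 and 0.16, NFYA, a subunit of the factor that binds the CCAAT of the ER stress element, fell by 0.13, 0.20 and 0.29, and CREB3L4, a membrane-bound transcription factor, rose by 0.16, 0.16 and 0.23. Of 9 FKBP genes outside the list, FKBP1B rose with shRNA1 by 0.16 and FKBPL fell with shRNA3 by 0.21, and the other 7 were not called. The shares called were 11.1%, 0% and 11.1%, against 10.1%, 14.5% and 26.8% of all genes, so none was clearly above that of all genes.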
